A study of Mus musculus with 6 samples.

Results

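The miRNAs of the imprinted Dlk1-Dio3 locus were examined in LLC1 cells, a line established from Lewis lung carcinoma of a C57BL mouse. Members were all mouse miRNAs on the array whose number was 1 of 46 assigned to this locus, both arms included. For 44 of these numbers the array carried a probe, which gave 69 mature miRNAs of the 566 mouse miRNAs measured, from 47 hairpin genes. Of these genes, 22 were represented by both arms. The array held no probe for miR-1193 or miR-1197, and miR-494 was not part of the definition.

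Cells of the 2D group were grown as a monolayer on plastic for 48 h. Cells of the lr-ECM 3D group were embedded for 48 h in Geltrex, a basement membrane extract rich in laminin, at 0.5 mg/ml in wells coated with agarose. Each group had 3 replicates, with 1 single-colour Agilent miRNA array per replicate, and both groups were the same unmodified cell line in the same medium. The replicates are described as repeated experiments of 1 cell line, so p-values measure the spread between such repeats. The 2D arrays shared 1 slide, and the lr-ECM 3D arrays shared a second slide that was scanned on another day, so slide and culture cannot be told apart.

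The Dlk1-Dio3 domain on mouse chromosome 12 is expressed according to parent of origin. Protein genes such as Dlk1 and Dio3 are read from the paternal copy, whereas the long noncoding RNAs Meg3, Rian and Mirg and the miRNAs are read from the maternal copy. The miRNAs are abundant in embryo, placenta and brain and are known for being silenced or reactivated as a block in several tumours. From each hairpin, Dicer cuts a 5p and a 3p strand. The seed of a strand, bases 2 to 8, selects the mRNAs that it represses.

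Out of the 69 members, 4 were detected, all of them in lr-ECM 3D cells and none in 2D cells. They were miR-485-3p and the 3p strands of the miR-376 family, miR-376c-3p, miR-376b-3p and miR-376a-3p. A miRNA counted as detected on an array where at least 50% of the spots of its probe were flagged well above background by the extraction software. The other 65 members (94.2%) were detected on no array. Mature sequences in RefSeq (mouse assembly GRCm38.p6) were matched by name for 66 members, from 19 to 25 bases long, and all member genes lay on chromosome 12. Unmatched were miR-376c-3p, miR-485-5p and miR-487b-3p. The detected members with a matched sequence are shown 5′ to 3′ with the seed in capitals, together with miR-154-3p, the member whose letters were nearest to those of miR-485-3p.
miR-376a-3p: aUCGUAGAggaaaauccacgu
miR-376b-3p: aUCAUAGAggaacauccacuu
miR-485-3p: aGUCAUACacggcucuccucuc
miR-154-3p: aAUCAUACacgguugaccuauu

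The 3p strands of miR-376a and miR-376b were the same at 18 of 21 positions. Counted from the 5′ end, with the base of miR-376a-3p first, they differed by G4A, A13C and G20U, and the difference at the fourth base lies within the seed. Given such likeness, how far the probes of the miR-376 family distinguish its members was not tested, and their single values are uncertain to that extent. MiR-485-3p shared 16 of 22 positions with miR-154-3p, 10 of them in 1 run. MiR-154-3p was among the members detected on no array.

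Bases 2 to 8 were compared over the 66 members with a sequence. Only 1 seed was shared, by miR-376b-5p and miR-376c-5p, and the other 64 seeds each belonged to 1 member. These 5p strands differed by G19U, with the base of miR-376b-5p first, and neither was detected.
miR-376b-5p: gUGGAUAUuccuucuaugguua
miR-376c-5p: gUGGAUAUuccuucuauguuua
The 3 detected strands with a sequence therefore carried 3 different seeds.

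The hairpins of these 3 genes show where the detected strand lies. The 3p strand, in capitals, follows the loop in each.
Mir376a: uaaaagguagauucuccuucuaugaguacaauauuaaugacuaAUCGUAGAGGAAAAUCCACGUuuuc
Mir376b: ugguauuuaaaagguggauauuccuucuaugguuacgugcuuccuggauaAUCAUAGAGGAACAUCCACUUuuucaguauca
Mir485: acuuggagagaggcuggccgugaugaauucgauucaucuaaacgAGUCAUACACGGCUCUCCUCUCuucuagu

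Across the data set, 48 to 101 mouse miRNAs were detected per 2D array and 120 to 151 per lr-ECM 3D array. The mean signal over miRNA probes was 21.4, 5.03 and 40.4 units in 2D cells and 49.9, 38.7 and 37.8 units in lr-ECM 3D cells. The 2D replicate 2 array was thus the dimmest and was multiplied by 4.43 in scaling, the other arrays by 0.447 to 1.04. The lowest signal of a probe well above background, taken as the detection limit of an array, lay between 25.3 and 29.7 units before scaling in 2D and between 22.1 and 25.9 in lr-ECM 3D. Among marker miRNAs of cell types, epithelial ones (the miR-200 family, miR-141, miR-429 and miR-205) were detected on 0 arrays for all 10 strands. The list taken as mesenchymal held miR-199a, miR-214, miR-143, miR-145, miR-10b and miR-21. Its strands were detected on at least 1 array for 8 of 11. The summed scaled signal of the mesenchymal strands was 3127 to 6435 units in 2D cells and 2430.0 to 2809 units in lr-ECM 3D cells. Of their 6 tested strands 1 was called, miR-21a-3p. It was lower in lr-ECM 3D cells by a log2 change of −1.15 (SE 0.23, limma's adjusted p = 0.027). This call depended on the processing. With no scaling, with the authors' log2 values or with any 1 lr-ECM 3D array left out, 0 miRNAs were called lower. Other alternatives called from 0 to 5 miRNAs lower. The part of these markers in the results was not tested. Haematopoietic markers were detected for 3 of 7 strands in both groups, namely both strands of miR-142a and miR-155-5p. The summed scaled signal of the haematopoietic strands was 329 to 614 units in 2D cells and 303 to 316 units in lr-ECM 3D cells. A fall without overlap was thus not particular to the mesenchymal list. Of all mouse miRNAs, 17.7% were lower in lr-ECM 3D cells without overlap after scaling, and 6.01% with no scaling.

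Members were counted on each array. Each 2D array had 0 detected members, and lr-ECM 3D replicates 1 to 3 had 4, 2 and 4 (3.33 ± 1.15, SD, n = 3). No lr-ECM 3D count of members fell within the 2D range. The same held for all detected mouse miRNAs, with 48 to 101 per 2D array and 120 to 151 per lr-ECM 3D array. For the members, two-sided p was 0.1 by exact permutation, and 3 arrays against 3 cannot give less. In bulk RNA, a change in the share of cells that hold a miRNA and a change in its level per cell cannot be told apart. As a share of all mouse miRNAs detected on the array, members made up 2.65%, 1.67% and 2.96% in lr-ECM 3D cells. The 2D replicate 3 array was as bright as the lr-ECM 3D arrays and had 101 detected mouse miRNAs, and 0 of them were members. The detection call that the software makes over all spots of a miRNA marked the same 4 members on each lr-ECM 3D array and 0 on each 2D array.

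Members detected on at least 1 lr-ECM 3D array and on no 2D array made up 4 of 69 (5.80%), against 9.36% of all mouse miRNAs. Detection on all lr-ECM 3D arrays and on no 2D array was found for 2 of 69 (2.90%), namely miR-376c-3p and miR-485-3p, against 5.12% of all mouse miRNAs. In neither count did the share of members exceed that of mouse miRNAs in general.

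**Figure D1:**
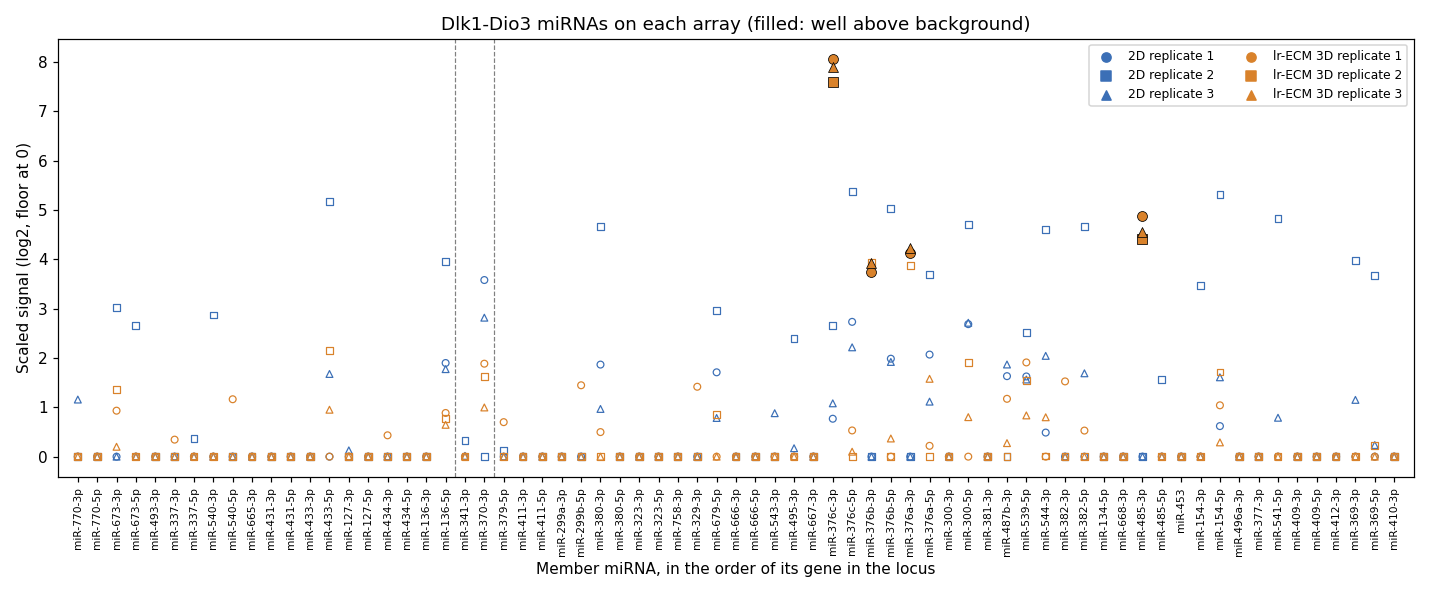
Scaled signal (log2, floor at 0) of all 69 members on each array, in the order of their genes in the locus, with 2D arrays in blue and lr-ECM 3D arrays in orange; filled symbols are well above background, and dashed lines separate the Meg3 and anti-Rtl1, Rian and miR-379 to miR-410 groups. Filled symbols occur for 4 members in lr-ECM 3D cells and for 0 in 2D cells, and open squares of 2D replicate 2 stand high because its signals were multiplied by 4.43.

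By position, 20 members came from 11 genes within Meg3 or antisense to Rtl1, and 0 of them were detected. Rtl1 is the retrotransposon-derived gene that the antisense miRNAs among them target. A further 2 members, miR-341-3p and miR-370-3p, came from the Rian region, and 0 were detected. The remaining 47 members came from 34 genes of the miR-379 to miR-410 cluster near Mirg, and all 4 detected members were among these. Within the order of the 47 member genes, Mir376c, Mir376b and Mir376a were the genes 27, 28 and 29, and Mir485 was gene 38. The member genes flanking the miR-376 genes, Mir667 and Mir300, gave no detected strand, nor did Mir668 and Mir453 on either side of Mir485.

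By strand, 4 of 40 3p members and 0 of 28 5p members were detected. Most of the detected strands were of the miR-376 family, whose distinction by the probes was not tested. The split of detected strands over all mouse miRNAs was not tested either, so no preference of the locus for a strand is drawn. The remaining member, miR-453, is listed with no strand. The 5p partners of all 4 detected strands were on the array. On the 2D arrays 0 of their spots were flagged, and on the lr-ECM 3D arrays 1 spot was, for miR-376b-5p in replicate 3.

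The miR-376 family was read from its 3p strands, which in the mouse are known mainly from brain and embryo. For miR-376c-3p, the signal before scaling was 1.64, 1.42 and 3.84 units on the 2D arrays and 599, 337 and 404 units on the lr-ECM 3D arrays. All lr-ECM 3D values lay above all 2D values, and every 2D value lay below the detection limit of its array. All 20 spots of this miRNA were flagged on each lr-ECM 3D array, with a coefficient of variation between spots of 13.9%, 5.99% and 8.95%, against 0 of 20 on each 2D array.

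After scaling, miR-376c-3p measured 0.77, 2.65 and 1.08 on the log2 scale in 2D cells and 8.06, 7.60 and 7.89 in lr-ECM 3D cells. The change was 6.35 (SE 0.52) with limma's adjusted p = 0.000381. MiR-376c-3p entered the fit through its detection on the lr-ECM 3D arrays alone, so this p-value is no separate support for the difference. Because the 2D values were not well above background, the fold is bounded by the detection limits of the 2D arrays, and miR-376c-3p was at least 6.03-fold higher in lr-ECM 3D cells. This bound differed by array: it was 7.47 over 2D replicate 1, 1.78 over replicate 2 and 16.5 over replicate 3 (no SD, 1 array each). Without the dim replicate 2 array the bound was 11.1, and on signals before scaling it was 15.5. The probes of this miRNA, 4 in number, gave log2 changes from 6.35 to 7.96.

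MiR-376a-3p is the sister strand from a neighbouring hairpin. Its signals before scaling were −4.05, −4.52 and −0.79 units in 2D cells, below local background, and 38.9, 25.4 and 32.0 units in lr-ECM 3D cells. The groups did not overlap, although lr-ECM 3D replicate 2 lay just below the detection limit of its array, 25.9 units. That limit was itself the signal of the other probe of miR-376a-3p on this array. Over both of its probes, 18, 9 and 18 of 20 spots were flagged on the lr-ECM 3D arrays and 0 of 20 on each 2D array. On the log2 scale after scaling the lr-ECM 3D values were 4.12, 3.87 and 4.24, while all 2D values were at the floor.

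For miR-376b-3p, signals before scaling were −2.72, −1.71 and −0.04 units in 2D cells and 29.9, 26.4 and 25.9 units in lr-ECM 3D cells. The groups did not overlap, and the lr-ECM 3D values lay close to the detection limits. Flagged spots numbered 12 of 20, 2 of 19 and 9 of 19 on the lr-ECM 3D arrays and 0 on the 2D arrays. On the log2 scale the lr-ECM 3D values were 3.74, 3.93 and 3.93, and the 2D values were at the floor. By the probe that represented each, neither miR-376a-3p nor miR-376b-3p was detected on every array of a group, so neither entered the test. For miR-376a-3p this rested on the choice of probe. Its other probe had 10, 5 and 8 of 10 spots flagged on lr-ECM 3D replicates 1 to 3, which meets the 50% limit on each. No fold is given for either, since on scaled signals the bound over the 3 2D arrays was under 1, and it stayed under 1 without 2D replicate 2 (0.811 and 0.702). Over 2D replicate 3 alone, the array of like brightness, it was 1.21 for miR-376a-3p and 1.04 for miR-376b-3p. On signals before scaling it was 1.13 and 0.976.

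MiR-485-3p comes from a hairpin further along the cluster, and its 5p partner is known for roles at synapses. Before scaling its signals were −6.23, −8.11 and −4.51 units in 2D cells and 65.5, 37.1 and 40.1 units in lr-ECM 3D cells. Every lr-ECM 3D value exceeded every 2D value and the detection limits of all arrays. Over its 4 probes, 20, 10 and 18 of 20 spots were flagged on the lr-ECM 3D arrays, and 0 of 20 on each 2D array.

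On the log2 scale after scaling miR-485-3p measured 4.87, 4.42 and 4.56 in lr-ECM 3D cells, whereas all 2D values were at the floor. The fitted change of 4.62 (SE 0.15, limma's adjusted p = 3.43e-06) therefore depends on the floor and is no bound. No fold is given for all 2D arrays together, because the scaled limits of 2D replicates 1 and 2 lay above the mean lr-ECM 3D signal. The bound was 1.18 without 2D replicate 2, 1.76 over replicate 3 alone and 1.64 on signals before scaling. With the floor raised to 10 the change was 1.29 with an adjusted p of 0.00129 by limma. All 2D values were at that floor as well. With normexp background correction the change was 0.59 with an adjusted p of 0.0641 by limma, which was not a call. MiR-485-3p entered these fits through its detection on the lr-ECM 3D arrays alone, so their p-values are no separate support for the difference.

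**Figure D2:**
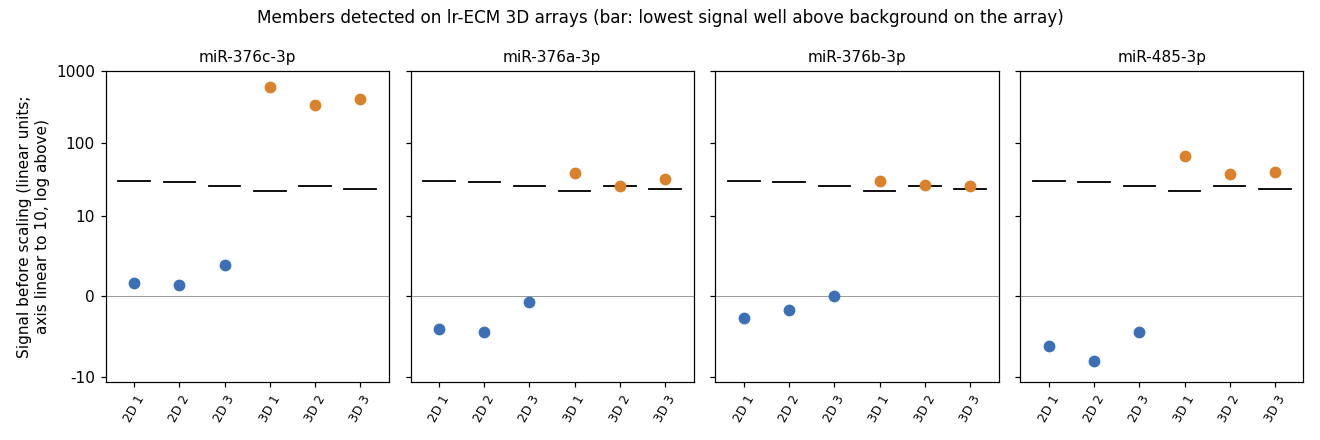
Signal before scaling of the 4 detected members on each array (linear units on an axis that is linear up to 10 and logarithmic above), with 2D arrays in blue, lr-ECM 3D arrays in orange and black bars for the detection limit of the array. All 2D points lie below the limit; miR-376c-3p lies far above it on all lr-ECM 3D arrays, and miR-376b-3p close to it at 25.9 to 29.9 units.

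**Figure D3:**
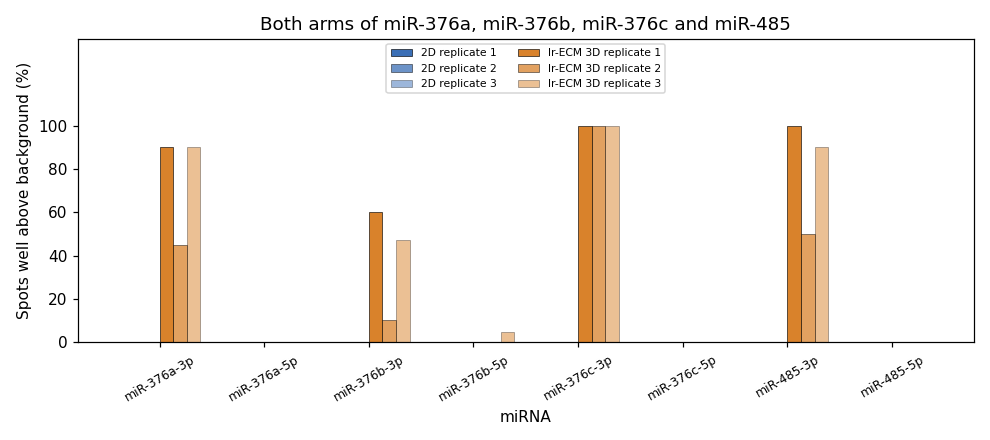
Percent of spots flagged well above background for both strands of the miR-376 family and of miR-485, with 1 bar per array (2D blue, lr-ECM 3D orange). The 3p strands have bars on the lr-ECM 3D arrays only, and among the 5p strands 1 spot of miR-376b-5p in lr-ECM 3D replicate 3 was flagged.

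The fit took in the 120 mouse miRNAs that were detected on every array of 2D, of lr-ECM 3D or of both, and 14 of 120 passed an adjusted p under 0.05 and a fold of at least 2, which is 11.7%. Of the 69 members only miR-376c-3p and miR-485-3p entered this fit, both through the lr-ECM 3D arrays alone, and both were called higher. With no filter, 4 of 69 members (5.80%) were called, all higher, against 5.65% of the 566 mouse miRNAs. These 4 were the detected members, with limma's adjusted p of 5.21e-05 for miR-376a-3p and 1.26e-05 for miR-376b-3p. Their 2D values had no spread at the floor, on which both p-values depend. Over all members the log2 change had a median of 0, against −0.07 for all mouse miRNAs, and 72.9% of the members' array values were at the floor compared with 45.9% for all mouse miRNAs.

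**Figure D4:**
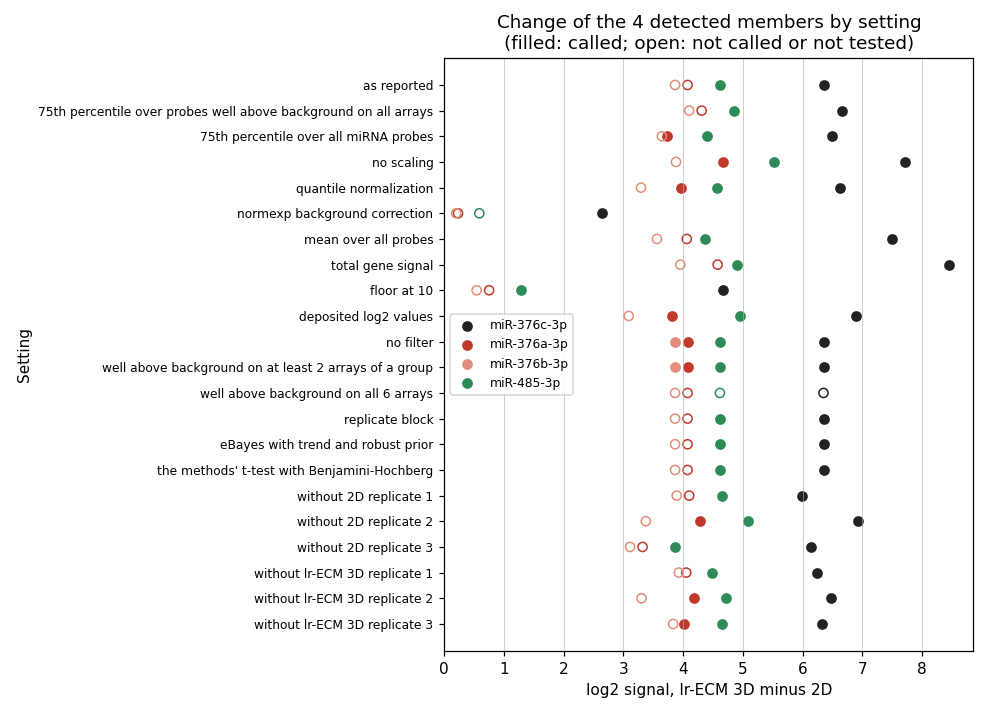
Log2 change (lr-ECM 3D minus 2D) of the 4 detected members as reported and under each alternative, 1 row per setting; filled points were called and open points were not called or not tested. All points lie above 0, those of miR-376c-3p from 2.65 to 8.45 and those of miR-485-3p from 0.59 to 5.52.

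The remaining 65 members had signals near local background in both cultures. Their median before scaling was −2.91, −1.91 and −1.67 units on the 2D arrays and −2.38, −2.79 and −2.94 units on the lr-ECM 3D arrays. The highest single value was 12.8 units, for miR-370-3p on 2D replicate 3, which is below the limit of 25.3 units there. Of their 1251 to 1284 spots per array, 0 were flagged on each 2D array. Among the lr-ECM 3D arrays, replicate 1 had 0 such spots and replicates 2 and 3 had 1 each. Negative control spots gave a like picture, with 0, 2 and 0 flagged of 661 to 671 on the lr-ECM 3D arrays. At this sensitivity no level can be given for these members in either culture. They include miR-127-3p, miR-127-5p and the other strands antisense to Rtl1, and miR-134-5p and miR-410-3p of the large cluster.

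Overlap was judged on signals floored at 1, so differences below the floor do not enter these counts. After scaling, signals of 4 of 69 members (5.80%) were higher in lr-ECM 3D cells with no overlap between groups. This compares with 9.19% of mouse miRNAs, and these 4 were the detected members. On signals floored at 1 but not scaled, 5 members were higher without overlap, against 16.8% of mouse miRNAs. They were the detected members and miR-673-3p, which was detected on no array. Without overlap in the other direction were 5 of 69 (7.25%), against 17.7% of mouse miRNAs. These were miR-136-5p, miR-300-5p, miR-376b-5p, miR-376c-5p and miR-380-3p, and none was well above background on any array. On signals floored at 1 but not scaled, 3 of them still did not overlap, namely miR-376b-5p, miR-376c-5p and miR-380-3p. The share over all mouse miRNAs was then 6.01%. For miR-376c-5p the signals before scaling and floor were 6.38, 9.31 and 8.42 units in 2D cells. They were 3.24, −0.66 and 1.82 units in lr-ECM 3D cells, and all lay below the limits. With the 5p strand under the limit, no ratio of strands can be given.

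MiR-376a-5p overlapped between groups, with 4.03, 2.92 and 3.93 units in 2D cells and 2.61, 1.51 and 5.07 units in lr-ECM 3D cells. MiR-495-3p and miR-544-3p of the same cluster were not well above background on any array. MiR-495-3p had signals before scaling of −1.01 to 2.04 units in 2D cells and −4.62 to −2.16 units in lr-ECM 3D cells. MiR-544-3p had 1.35 to 7.47 units in 2D cells and −1.57 to 2.95 units in lr-ECM 3D cells, so its groups overlapped.

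Outside the definition, the array carried 4 further strands of the 9 other miRNA numbers listed for the locus. Of these, miR-654-3p, miR-654-5p and miR-882 were detected on no array, and Mir654 lies between Mir376c and Mir376b. MiR-494-3p was detected on all 6 arrays, with log2 signals after scaling of 9.91, 8.10 and 9.19 in 2D cells and 8.12, 8.33 and 8.18 in lr-ECM 3D cells. The groups overlapped, and the change of −0.86 (SE 0.46) had an adjusted p of 0.296 by limma. Among the numbers examined, a strand was thus detected in 2D cells for miR-494 only. MiR-1224-5p, which is not listed for the locus, ranked the 2D arrays in the same order, with 11.2, 9.04 and 10.2. In lr-ECM 3D cells it measured 9.50, 9.70 and 9.56. Whether the miR-494-3p signal reflects expression of the locus was not tested.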

How the data were processed

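Total RNA of LLC1 cells, 3 replicates each of 2D and lr-ECM 3D culture, was hybridised by the authors to single-colour Agilent mouse miRNA arrays. The deposited files hold spot intensity values on a linear scale, extracted with Agilent Feature Extraction 10.7.3.1 per the labels, background-subtracted and partly negative, with no normalization between arrays. The authors also deposited a table of log2 values, whose columns all had a mean of 1.79 and equalled the log2 intensity floored at 1 plus a constant per array (largest departure 0.049). It was used as an alternative.

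Control spots and 190 to 369 outlier spots per array were left out, and 0 spots were saturated. Spots were averaged per probe, arrays were scaled to the mean of the 2D arrays, floored at 1 and converted to log2. The probe with the highest mean represented each miRNA. The test of limma 3.58.1 (R 4.3.3) with Benjamini-Hochberg adjustment was run on mouse miRNAs detected on every array of at least 1 group, and calls had a fold of at least 2 and an adjusted p under 0.05. To bound a fold, the mean log2 of the bright arrays was set against the dim arrays with each dim value raised to its array's detection limit where it lay below. The number of arrays limits the precision.

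Members, position groups and marker lists were chosen with earlier results of these data known. Values on every array are given for members detected on at least 2 arrays of a group; other members of the miR-376 family, miR-495-3p and miR-544-3p are given with fewer values, the rest by name or count. Values given for further members were chosen after they were seen. Marker strands were detected on no array for endothelial (2 on the array), neuronal (2) and hepatocyte (1) lists, and on lr-ECM 3D arrays alone for 1 of 5 muscle and 2 of 21 pluripotent strands. The array files name genome build mm9, whereas the RefSeq tables are of GRCm38.p6. The order of the genes was taken from positions in GRCm38.p6, and no coordinates are given.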

Additional observations from a re-analysis of the deposited data

How the results depend on the processing

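The number of members called, 2 as reported, stayed within 1.5 times of that count under 17 of 21 alternatives. It was 1 with normexp background correction at an offset of 50, where miR-485-3p was not called, 4 with no filter and 4 with detection on at least 2 arrays of a group, and 0 of 0 members tested where detection on all 6 arrays was required. Leaving out 1 array at a time, it ranged from 2 to 3. Since both members called as reported entered the fit through the lr-ECM 3D arrays, and all 2D values of miR-485-3p were at the floor, this is no sign of stability. MiR-376a-3p was also called when 2D replicate 2, or replicate 2 or 3 of lr-ECM 3D, was left out, and with no scaling, quantile normalization, the 75th percentile over all probes and the deposited values. With normexp it was tested and not called (change 0.23, limma's adjusted p = 0.325), and with the floor at 10 its change was 0.75, compared with 4.07 as reported. The bound of the fold of miR-376c-3p rose from 6.03 to 11.1 without 2D replicate 2; this and the bound before scaling were chosen after seeing the data. With the replicate number as a block (replicate block) 2 members were called. Deviations of arrays with the same number correlated at −0.32, −0.37 and 0.16, so the numbers were not taken as pairs. The difference in detected members per array, 3.33, lay between 2 and 4.33 over its 11 alternatives and between 3 and 4 with an array left out, always higher in lr-ECM 3D cells. The count over all tested mouse miRNAs, 14 as reported, ran from 0 with detection on all 6 arrays required to 32 with no filter or without 2D replicate 2. Scaling moved the median change of the tested miRNAs from −0.11 as reported to 1.24 with no scaling, 0.76 with the deposited values, 0.66 with total gene signal and 0.41 with normexp. The changes of miR-376c-3p and miR-485-3p lay above the median under each of these, but under normexp miR-485-3p changed by 0.59, close to that median. Members with signals under 22.1 to 29.7 units before scaling could not be detected.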
